A study of Homo sapiens with 20 samples.

Results

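The genes of the BCL2 family measured here were the anti-apoptotic BCL2L1 and MCL1, the pore-forming effectors BAX and BAK1, and the BH3-only members BAD, BID, BIK, BMF, BCL2L11 and PMAIP1. They were taken as the probes of a whole-transcriptome bead array whose platform annotation names 1 of these 10 genes, which gave 24 of 47323 probes, for 10 of the 20046 genes named. Each of 20 arrays held RNA from SKBr3, a human breast cancer line with an amplified ERBB2 gene, in 10 groups of 2 replicates. Every culture had been transfected 60 h before harvest, with siC, a control siRNA, or with siERRα, which targets the nuclear receptor ERRα. In the growth factor experiment they were starved of serum and given PBS (called starved here), EGF or heregulin (HRG), a ligand of HER3, with a stated dose of 100 µM and 24 h of exposure per the labels, where the methods of the study give a shorter exposure. In the second experiment, parental cells were compared with lapatinib-resistant cells, both in 10% serum, and only the resistant cells were kept in the drug, so resistance and the presence of lapatinib cannot be told apart. Lapatinib blocks the kinases of EGFR and HER2. The labels give the starvation as 24 h or 48 h and the lapatinib in the culture as 2 µM or 1 µM. They do not say whether replicates were separate cultures, so p-values cover only the spread between samples that could be technical repeats.

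Proteins of the BCL2 family set whether the outer mitochondrial membrane stays closed. BCL2L1 (BCL-XL) and MCL1 hold the effectors BAX and BAK1 in check, and BH3-only proteins relieve that restraint or activate the effectors directly, so that pores form and cytochrome c escapes to switch on the caspases. Growth factor receptors of the EGFR and HER2 type are known to act on this balance, among other routes through the level of MCL1, the phosphorylation of BAD and the abundance of BCL2L11 (BIM) and BMF. Arrays report RNA, so none of the protein events was measured.

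Every level below is a log2 intensity after background correction and quantile normalization. Replicate 1 of EGF siERRα stood apart, with a correlation of 0.816 to 0.853 with the other 19 arrays across 15444 detected probes, which are not independent, whereas those arrays correlated at 0.943 to 0.990 with each other. On that array the 2 MCL1 probes went opposite ways, with the lowest level of all arrays for ILMN_1756806 (5.60, not detected) and the highest for ILMN_1803988 (11.54). All groups share 1 estimate of the spread in the limma fit, so the values of BCL2 family probes are given with all 20 arrays and, where it changes a call, with the 19 left without that array. Of 12 markers of a HER2-positive luminal line, 11 were measured and 10 were detected on every array. The leukocyte list had 4 of 8 members measured, the mesenchymal list 1 of 8 and the endothelial list 2 of 6.

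Detection meant a detection p under 0.01, and a probe was tested if at least 1 group had it detected on both of its arrays. Of the 24 probes, 13 passed and 11 did not. BCL2L11 with its 3 probes and PMAIP1 (NOXA, a partner of MCL1) with its 2 probes did not pass, so nothing is said of how their RNA changed. BAX passed with 1 of 3 probes, BAD with 2 of 3 and BMF with 1 of 4. BCL2L1, MCL1, BAK1, BID and BIK passed with every probe. The BMF probe was detected on only 5 of 20 arrays, both parental pairs and 1 starved array. Since it passed through the groups where it is high, its being lower elsewhere is in part fixed by the filter.

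**Figure D1:**
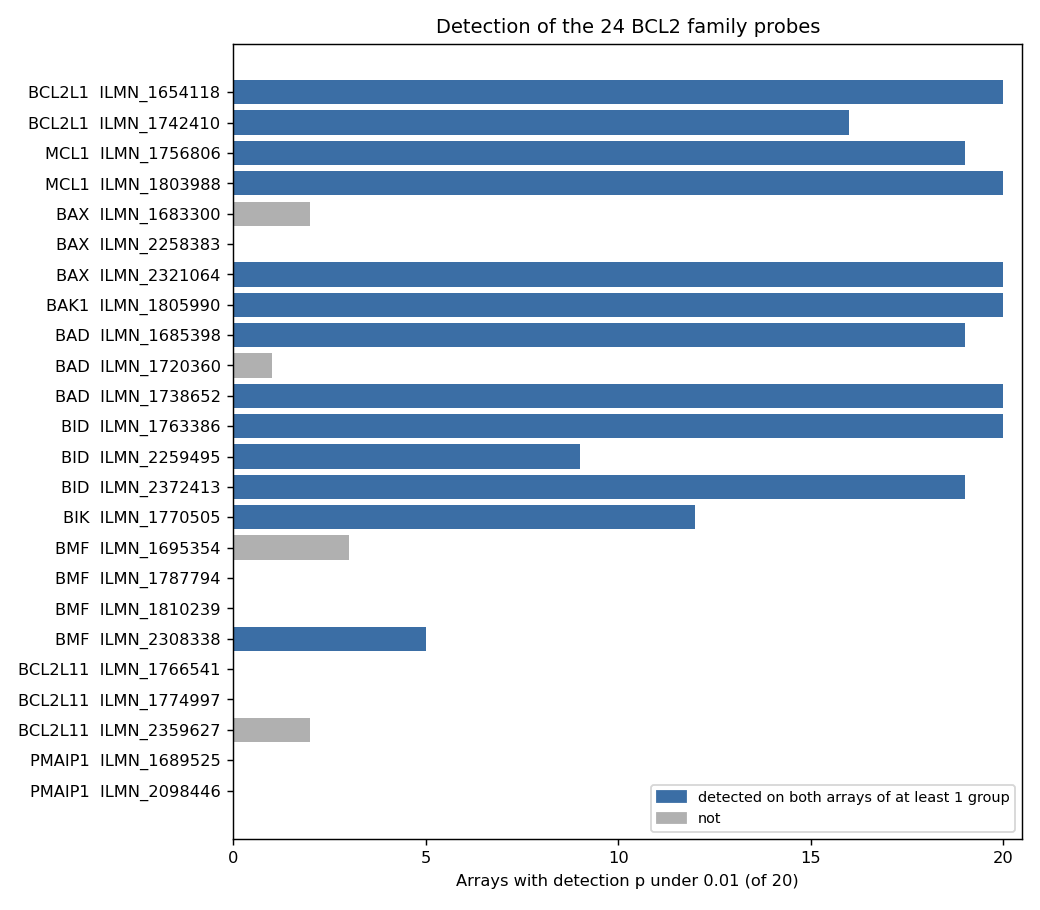
The bars give, for each of the 24 probes of the 10 genes, the number of the 20 arrays with a detection p under 0.01, in blue for the 13 probes detected on both arrays of at least 1 group and in grey for the others. The PMAIP1 probes were detected on 0 arrays, and 1 BCL2L11 probe reached 2 arrays.

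EGF treatment of siC cells raised BID at 1 of its 3 probes and lowered BMF. BID, which is cut by caspase 8 and carries the death receptor signal to mitochondria, had log2 intensities of 8.30 and 8.25 on the starved arrays and of 9.18 and 8.89 with EGF at probe ILMN_1763386. The groups did not overlap, and the difference was 1.70-fold (log2 fold change 0.77, SE 0.17, adjusted p = 0.0258, limma). The other BID probes were not called, with log2 fold changes of 0.36 at ILMN_2372413 (adjusted p = 0.898) and 0.28 at ILMN_2259495 (adjusted p = 0.913). ILMN_2259495 passed the filter only through the EGF siC arrays, so its direction here is in part fixed by the filter. BMF, a BH3-only protein held by the dynein light chain on the cytoskeleton, stood at 5.98 and 5.88 in starved cells and at 4.60 and 5.10 with EGF. Only 1 of the starved arrays and neither EGF array detected it, so that the fall is given as at least 1.16-fold, the bright group's mean against the lowest detected signal of each dim array (adjusted p = 0.0122). MCL1, the short-lived guardian of BAK1, had at ILMN_1756806 levels of 7.30 and 7.55 in starved cells against 9.19 and 8.71 with EGF. Its log2 fold change of 1.53 had an adjusted p of 0.313 with 20 arrays and of 0.00242 (SE 0.25) with 19. At ILMN_1803988 MCL1 read 9.73 and 9.46 in starved cells and 10.52 and 10.50 with EGF, with adjusted p-values of 0.28 and 0.116. Both MCL1 probes thus had EGF arrays above the starved arrays, and 1 of the 2 was called, with 19 arrays only. In all, 2 of the 13 member probes were called with 20 arrays and 3 with 19, where 3.37% and 9.03% of all 15444 probes were called. With 20 arrays and 1 array of the compared groups left out, BID and BMF were each called in 1 of 4 fits, with adjusted p-values up to 0.266 and 0.166. In bulk RNA, fewer cells with a transcript and less of it per cell cannot be told apart.

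HRG, which signals through HER3 and HER2, gave values near those of EGF in siC cells, against the same 2 starved arrays. BMF fell to 4.69 on both arrays, at least 1.07-fold (adjusted p = 0.00848), and was not detected on either. Leaving out 1 of the 4 arrays ended this call each time, with adjusted p-values up to 0.0827. BID reached 9.05 and 8.86, above both starved arrays, a 1.60-fold difference (log2 fold change 0.68, SE 0.17) with an adjusted p of 0.0661 over 20 arrays and of 0.0134 over 19. At ILMN_2372413 BID had a log2 fold change of 0.34 and at ILMN_2259495 of -0.43, neither called. ILMN_2259495 was not detected on either HRG array. MCL1 stood at 8.17 and 8.45 for ILMN_1756806 and at 10.53 and 10.45 for ILMN_1803988. The log2 fold changes of both MCL1 probes were 0.89, with adjusted p-values of 0.72 and 0.358, and of 0.0621 and 0.153 with 19 arrays, so neither was called. Thus 1 member probe was called with 20 arrays and 2 with 19, beside 1.9% and 5.52% of all probes. Between the ligands themselves, 0 member probes and 0% of all probes were called with either set of arrays by limma. With 20 arrays 0 member probes, and with 19 arrays 1, had an unadjusted limma p under 0.05. That probe was MCL1 ILMN_1756806, with a log2 fold change of HRG over EGF of -0.64 and an adjusted p of 0.765.

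The effectors and the remaining members were not called with either ligand in siC cells. BCL2L1 had a log2 fold change of -0.11 with EGF and -0.20 with HRG at its brighter probe, ILMN_1654118. BAX had -0.07 and -0.45, and BAK1 had 0.36 and 0.23. BAD, which binds BCL2L1 when it is not phosphorylated, had -0.37 and -0.28 at ILMN_1738652, and -0.36 and 0.05 at ILMN_1685398. BIK, a BH3-only protein of the endoplasmic reticulum, was below detection on both arrays of starved and of EGF-treated siC cells, so that no fold is given. Arrays of the ligand and the starved group did not overlap for 9 of 13 member probes with EGF and 9 with HRG, where 51.8% and 48.9% of all probes did not. Between HRG and EGF it was 5 of 13, beside 29.7% of all.

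**Figure D2:**
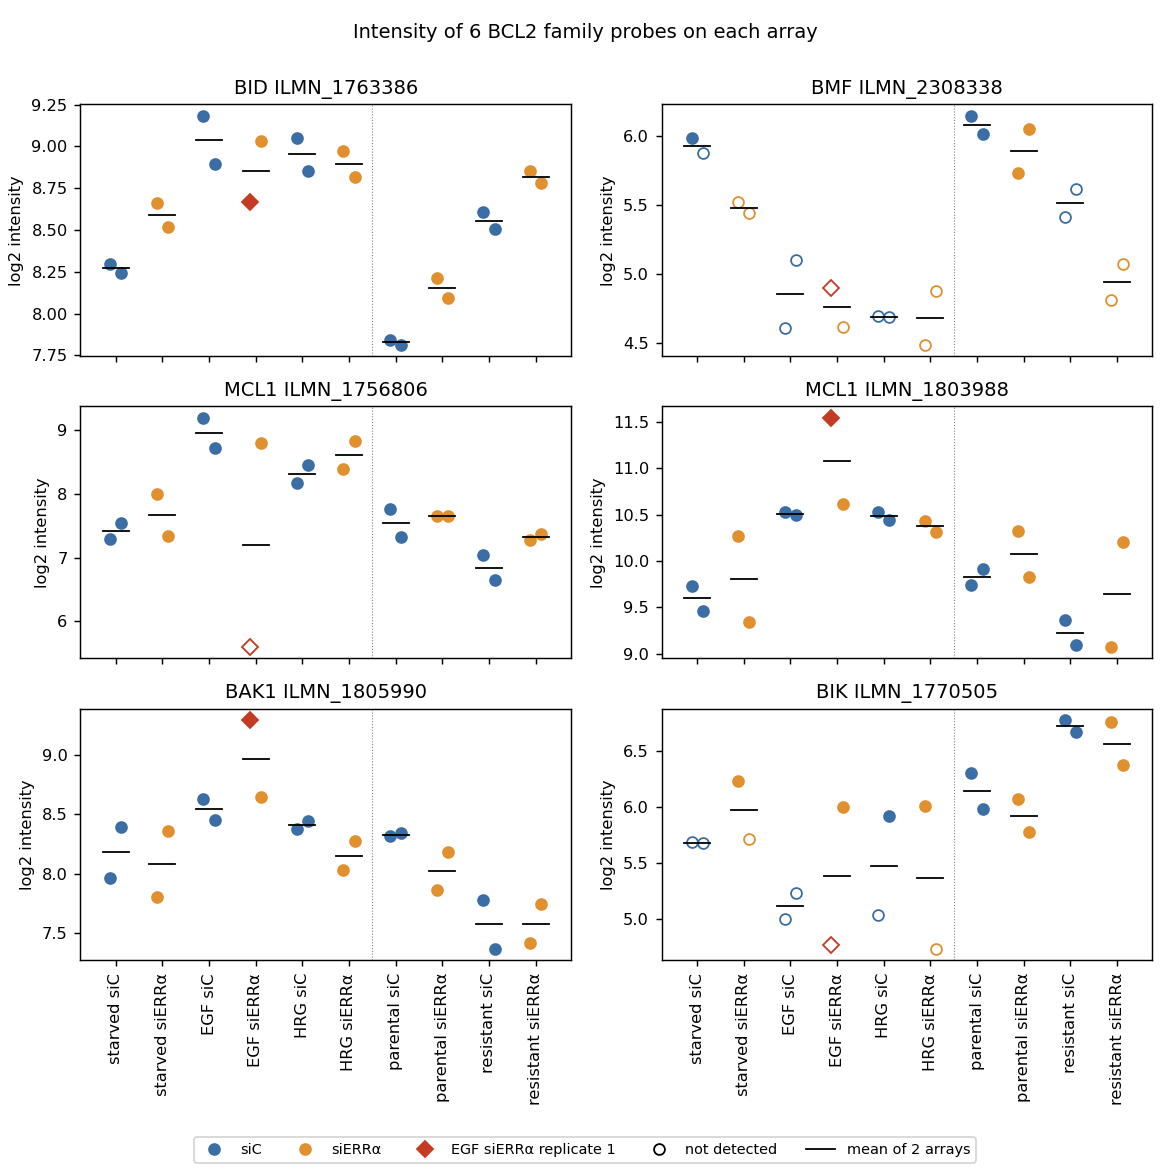
Each panel gives the log2 intensity of 1 probe (vertical axis) on the arrays of the 10 groups (horizontal axis), with siC in blue, siERRα in orange, the array that stood apart as a red diamond, open symbols where the probe was not detected and a line at the mean of the 2 arrays. BID at the probe drawn, ILMN_1763386, is lowest in parental siC cells and highest with EGF, whereas BMF is detected on both arrays only in the parental groups.

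In siERRα cells the ligands gave the following values. BMF stood at 5.52 and 5.44 in starved cells and at 4.49 and 4.87 with HRG, below detection on all 4 arrays, so that no fold is given although the test called it with 19 arrays (adjusted p = 0.0287) and not with 20 (adjusted p = 0.0849). MCL1 ILMN_1756806 rose with HRG from 8.0 and 7.34 to 8.39 and 8.83 (log2 fold change 0.94), called with 19 arrays (adjusted p = 0.0485) and not with 20 (adjusted p = 0.665). BID ILMN_1763386 had log2 fold changes of 0.30 with HRG and, over 19 arrays, of 0.44 with EGF, with adjusted p-values of 0.235 and 0.197 over 19 arrays. With EGF, 1 member was called over 20 arrays, BAD at ILMN_1685398 (log2 fold change -1.36, adjusted p = 0.0248). It rested on the array that stood apart, where the level was 5.24 and not detected, and without it the log2 fold change was -0.78 with an adjusted p of 0.145. The shares of all probes called were 7.74% and 3.78% for EGF and 1.68% and 5.67% for HRG, with 20 and 19 arrays. Arrays did not overlap for 5 of 13 member probes with EGF, beside 44.9% of all, and for 8 with HRG, beside 50.4%.

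Averaging the 2 siRNAs, a comparison added after the data were seen, put 4 arrays on each side, or 3 EGF arrays when the one that stood apart is left out. With 19 arrays EGF called 5 of 13 member probes, beside 13.8% of all probes. BID ILMN_1763386 rose by a log2 fold change of 0.61 (SE 0.11, adjusted p = 0.00292). MCL1 rose at ILMN_1756806 by 1.33 (SE 0.20, adjusted p = 0.000777) and at ILMN_1803988 by 0.86 (SE 0.27, adjusted p = 0.0476). The 2 probes of MCL1 thus went the same way in this fit, and the other 2 calls were falls of BMF (adjusted p = 0.000992) and of BAD ILMN_1685398 (log2 fold change -0.57, adjusted p = 0.048). At ILMN_2372413 and ILMN_2259495 BID had log2 fold changes of 0.18 and 0.18 with EGF, and BAD had -0.17 at ILMN_1738652, none of them called. The EGF and starved arrays of BAD ILMN_1685398 overlapped. HRG called 3, beside 15.1% of all probes. These were BID ILMN_1763386 (log2 fold change 0.49, SE 0.10, adjusted p = 0.00547), MCL1 ILMN_1756806 (0.92, SE 0.18, adjusted p = 0.00456) and BMF (adjusted p = 0.00031). The other BID probes had 0.24 and 0.05 with HRG and MCL1 ILMN_1803988 had 0.73, none of them called. BMF was below detection on every EGF and HRG array and on the starved siERRα arrays, so no fold is given for it in these averages. With all 20 arrays EGF called 5 probes, beside 11.8% of all, among them BAK1 (log2 fold change 0.62, adjusted p = 0.0461) in place of MCL1 ILMN_1756806 (0.53, adjusted p = 0.472). HRG then called 2, BID and BMF, beside 6.44%, and MCL1 ILMN_1756806 had an adjusted p of 0.32.

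Lapatinib-resistant siC cells had more BID than parental siC cells at 1 of its 3 probes with 20 arrays. In siC cells ILMN_1763386 read 7.84 and 7.81 in parental and 8.60 and 8.50 in resistant cells, a 1.66-fold difference (log2 fold change 0.73, SE 0.17, adjusted p = 0.0383). In siERRα cells it read 8.22 and 8.09 against 8.86 and 8.78 (log2 fold change 0.66, SE 0.17), with an adjusted p of 0.0539 over 20 arrays and of 0.0106 over 19. The 4 resistant arrays lay above the 4 parental arrays. A second BID probe, ILMN_2372413, read 5.77 and 6.79 in parental and 7.11 and 7.17 in resistant siC cells (log2 fold change 0.86, adjusted p = 0.0835 with 19 arrays), and 5.96 and 6.67 against 7.50 and 7.48 in siERRα cells (log2 fold change 1.18, adjusted p = 0.0202 with 19 arrays and 0.425 with 20). In siC cells this second probe was not called with 20 arrays either. The third, ILMN_2259495, was detected on only 9 of the 20 arrays and had log2 fold changes of 0.24 and -0.11.

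BMF was lower in resistant cells, with 5.41 and 5.62 against 6.15 and 6.01 in siC cells and 4.81 and 5.07 against 5.73 and 6.05 in siERRα cells. It was detected on all 4 parental arrays and on none of the 4 resistant arrays. The probe was tested only because the parental groups detected it, so its lower level here is not independent of the filter and is given as a description. It was at least 1.21-fold lower in siERRα cells (adjusted p = 0.0247) and at least 1.38-fold lower in siC cells (adjusted p = 0.225), and the difference between these 2 responses was not called. BAK1, which forms pores with BAX, read 8.31 and 8.34 in parental and 7.78 and 7.37 in resistant siC cells (log2 fold change -0.75, SE 0.26, adjusted p = 0.186). BIK was detected on all 8 arrays of this experiment and lay at 6.38 to 6.78 on the 4 resistant arrays against 5.78 to 6.31 on the 4 parental arrays, with log2 fold changes of 0.58 and 0.64 that were not called. In each siRNA 1 of 13 member probes was called with 20 arrays, and 1 in siC and 3 in siERRα cells with 19. The shares of all probes were 2.95% and 7.7% in siC and 3.37% and 8.29% in siERRα cells. Leaving out 1 of the 4 compared arrays ended the calls of BID in siC and BMF in siERRα cells each time, with adjusted p-values up to 0.239 and 0.243. Arrays did not overlap for 9 of 13 member probes in siC and 7 in siERRα cells, beside 54.9% and 52.4% of all.

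Averaged over the 2 siRNAs, again added after the data were seen, resistance called 2 members with 20 arrays, beside 9.15% of all probes. These were BID ILMN_1763386 (log2 fold change 0.70, SE 0.12, adjusted p = 0.00255) and BMF (adjusted p = 0.00544). With 19 arrays resistance called 4, beside 19% of all probes, adding BID ILMN_2372413 (log2 fold change 1.02, SE 0.20, adjusted p = 0.00314) and BAK1 (log2 fold change -0.60, SE 0.16, adjusted p = 0.0178). Both counts include BMF, whose probe was tested only because the parental groups detected it. Its lower level here is thus not independent of the filter and is a description. The third BID probe, ILMN_2259495, had 0.06 and was not called. MCL1 had log2 fold changes of -0.51 at ILMN_1756806 and -0.52 at ILMN_1803988. Their adjusted p-values were 0.63 and 0.31 with 20 arrays, and 0.0638 and 0.153 with 19. BIK had 0.61 with an adjusted p of 0.285 with 20 arrays and of 0.117 with 19.

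**Figure D3:**
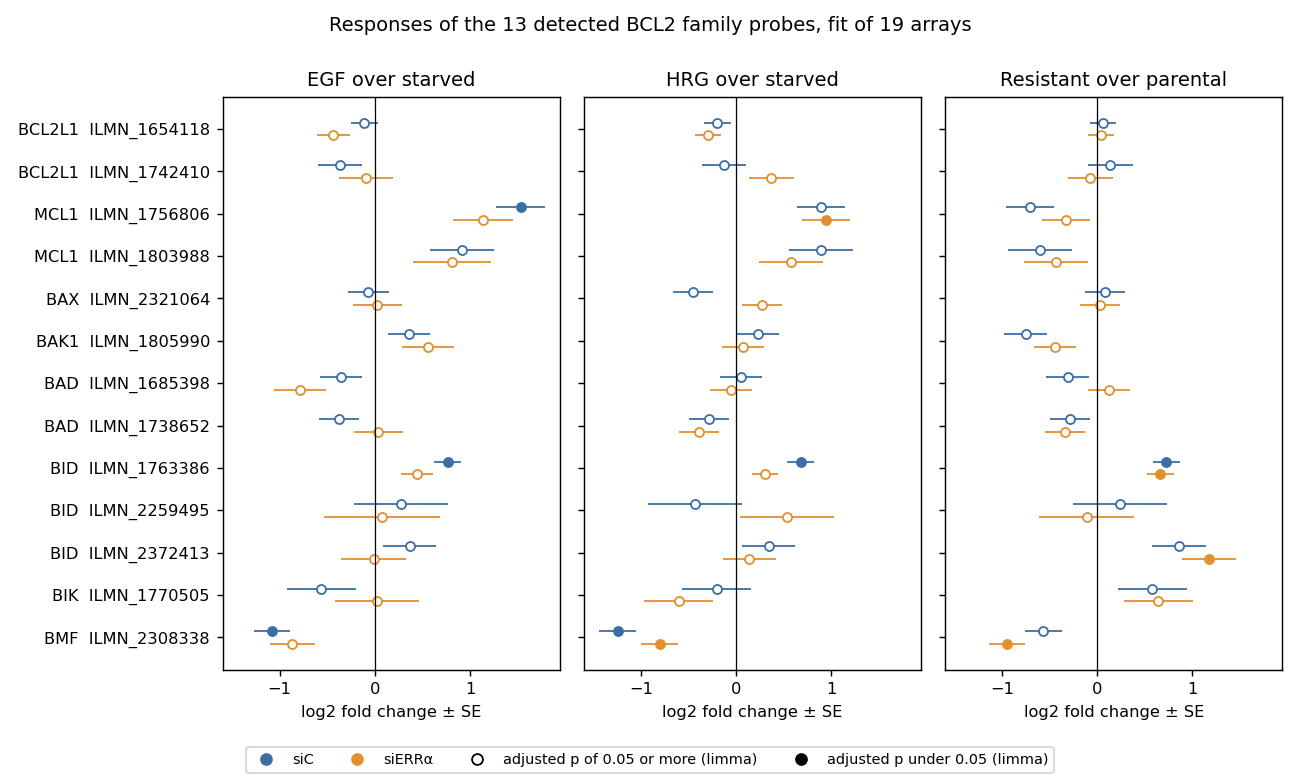
Points give the log2 fold change (horizontal axis) of each of the 13 detected probes with EGF, HRG or resistance, in siC (blue) and siERRα (orange) cells, from the fit of 19 arrays, in which the EGF siERRα group is 1 array. Bars are 1 SE, and filled points have an adjusted p under 0.05 in limma. BID ILMN_1763386 is to the right of 0 and BMF to the left of 0 in each of the 6 comparisons. All filled points are of BID, BMF or MCL1 probes. The BMF probe passed the filter only through the parental groups.

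The levels of BID at ILMN_1763386 over the 10 groups are given with 19 arrays, with SDs over 2 arrays except EGF siERRα. The order ran from EGF siC (9.04 ± 0.20), EGF siERRα (9.03), HRG siC (8.95 ± 0.14), HRG siERRα (8.89 ± 0.11) and resistant siERRα (8.82 ± 0.05) down to starved siERRα (8.59 ± 0.10), resistant siC (8.55 ± 0.07), starved siC (8.27 ± 0.04), parental siERRα (8.15 ± 0.09) and parental siC (7.83 ± 0.02). Arrays of neighbours in that order overlapped in 5 of 9 pairs, among them the 4 pairs within the first 5 groups. For BMF the order ran from parental siC (6.08 ± 0.09) to the 4 groups given a ligand, whose means lay at 4.62 to 4.85, all below detection, and 6 of 9 neighbouring pairs overlapped. Starved siC cells lay between parental and resistant cells for BID, and parental over starved siC cells had a log2 fold change of -0.44 that was not called (adjusted p = 0.463, and 0.149 with 19 arrays). In that comparison 0 of 13 member probes were called with 20 or 19 arrays (1 and 2 at an unadjusted limma p under 0.05), beside 0.537% and 1.7% of all. Those cells differ in serum and in experiment, which cannot be told apart.

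Promoters are shown for BMF and BID, the members with calls in both experiments (that of BMF with resistance being tied to the filter), as the 250 bases before and 50 bases from the start site given by RefSeq on GRCh38.p14. Windows were given for 8 of the 10 genes, 15 in all. BMF had 2 windows and BID 5, and the ones shown were picked because they hold a motif. The BMF window shown is chr15:40108830-40109129 (minus strand), with TGACG, the core letters of a cyclic AMP response element, in capitals. The BID window shown is chr22:17773993-17774292 (minus strand), with the E-box CACGTG in capitals.
BMF: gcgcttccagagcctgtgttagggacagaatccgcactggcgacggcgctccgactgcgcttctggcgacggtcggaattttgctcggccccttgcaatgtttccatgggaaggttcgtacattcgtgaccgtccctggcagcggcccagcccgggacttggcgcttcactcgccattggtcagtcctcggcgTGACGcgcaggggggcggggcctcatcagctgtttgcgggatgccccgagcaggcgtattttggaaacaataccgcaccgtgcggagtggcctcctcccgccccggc
BID: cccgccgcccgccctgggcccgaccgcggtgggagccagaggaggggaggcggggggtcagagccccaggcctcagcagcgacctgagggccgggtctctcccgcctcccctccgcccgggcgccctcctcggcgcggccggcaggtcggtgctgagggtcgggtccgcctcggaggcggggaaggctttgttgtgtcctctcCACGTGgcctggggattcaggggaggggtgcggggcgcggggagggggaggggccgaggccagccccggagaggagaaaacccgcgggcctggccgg
Motifs were searched as exact letters on both strands. TGACG lay at -57 from the BMF start and in 6 of the 15 windows (1 of 2 for BMF), and 24.6% of all 35116 RefSeq windows of 300 bases hold it. CACGTG lay at -47 from the BID start and in 3 of the 15 windows, against 7.26% of all, and 2 of those 3 are overlapping BID windows with the same site. GTAAACA, the forkhead letters, was found in 1 of the 15 windows, that of BCL2L11, against 3.42% of all. TGANTCA (AP-1) and AAGGTCA (the core letters of the ERR response element) were found in 0 of the 15, and in 7.71% and 3.92% of all. Several windows of a gene overlap, and a match is a description of letters only.

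Depletion of ERRα was checked on its own gene. In each of the 5 settings the siERRα arrays lay below the siC arrays for ESRRA, which fell by 1.47 on the log2 scale on average (SE 0.14, adjusted p = 0.000572). The log2 fold change ran from -0.99 in HRG-treated to -2.61 in resistant cells with 20 arrays, and resistant siERRα arrays read 6.39 and 6.41 where the parental ones read 7.60 and 8.02. The fall in resistant cells exceeded that in parental cells by 1.28 on the log2 scale (SE 0.44), a difference that was not called after adjustment.

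No BCL2 family probe passed the test for siERRα over siC. With 20 and with 19 arrays, 0 of 13 member probes were called by limma in any of the 5 settings or on average over them. The shares of all probes called with 20 arrays were 0.00648% in starved cells, 0.0453% with EGF, 0% with HRG, 0% in parental cells and 0.013% in resistant cells, at most 0.0453% with 19, and 0.013% on average (0.0259% with 19 arrays). With 20 arrays ESRRA itself was not called in starved, EGF-treated, HRG-treated or parental cells, and with 19 arrays not in parental cells either. There the test missed the target of the siRNA, so 0 member calls do not show that no member changed. At an unadjusted limma p under 0.05 there were 0, 3, 0, 0 and 1 member probes in starved, EGF, HRG, parental and resistant cells with 20 arrays, and 2, 0, 0, 1 and 1 with 19. The average had 1 member probe with 20 arrays and 2 with 19. These were BMF (adjusted p = 0.524, and 0.276 with 19 arrays), which was below detection in 3 of the 5 settings so that no difference is given, and BID ILMN_1763386, with 0.17 over 19 arrays (adjusted p = 0.386). At this probe BID had siERRα arrays above siC arrays in starved (8.66 and 8.52 against 8.30 and 8.25), parental and resistant cells and overlapping arrays with EGF and HRG. At ILMN_2372413 the parental arrays overlapped. The share of all probes with such a gap was not counted for siERRα over siC. Between HRG and EGF, where 0% were called, it was 29.7%, so a gap between 2 pairs of arrays is common.

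Whether ERRα depletion changed a response was tested as a difference of differences. For EGF against starved, HRG against starved and resistant against parental cells, 0 member probes and 0% of all probes were called with 20 and with 19 arrays by limma. The smallest adjusted p of a member was 0.465, and 0.869 with 19 arrays. At an unadjusted limma p under 0.05 the members numbered 1, 0 and 0 with 20 arrays and 0, 1 and 0 with 19. The member differences over 19 arrays lay between -0.43 and 0.97 on the log2 scale.

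**Figure D4:**
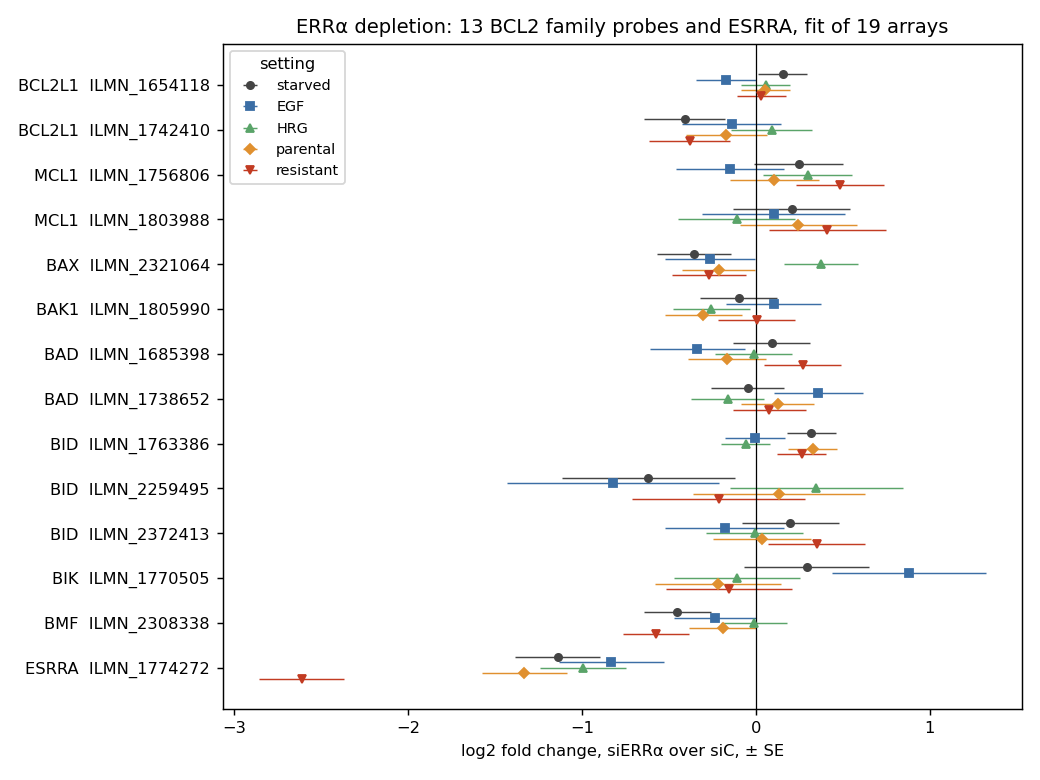
Points give the log2 fold change of siERRα over siC (horizontal axis) in the 5 settings for the 13 detected probes and for ESRRA, from the fit of 19 arrays, with bars of 1 SE. ESRRA lies to the left of 0 in each setting, furthest in resistant cells at -2.61. In the limma test 0 of the 13 probes were called in any setting. In parental cells 0% of all probes were called, so ESRRA was not called there either. In the other settings at most 0.0453% of all probes were called.

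The other genes of the pathway were counted from lists, with 1 probe a gene and 20 arrays. In siC cells 3.37%, 1.9% and 2.95% of all probes were called with EGF, HRG and resistance. With 19 arrays these shares were 9.03%, 5.52% and 7.7%. Of 13 further BCL2 family genes 7 were measured, among them BBC3 (PUMA), BOK and the mitophagy receptors BNIP3 and BNIP3L, and 0 were called with EGF, HRG or resistance. With 19 arrays 1 rose with resistance, BCL2L13 (log2 fold change 0.67, adjusted p = 0.0165 in siC cells). Of the apoptosome and caspase list, 12 of 16 were measured, and 0 were called with either ligand or with resistance in siC cells (with 19 arrays, 1 fell with EGF). In resistant siERRα cells DIABLO, the mitochondrial antagonist of IAPs, fell (log2 fold change -0.73, adjusted p = 0.0135). With 19 arrays CYCS (cytochrome c) also fell there (-0.88, adjusted p = 0.0218) and CASP4 rose (0.94, adjusted p = 0.0319). Of 7 IAPs, which restrain caspases, 4 were measured and 0 were called (1 rose with EGF and 1 fell with HRG with 19 arrays). Of the kinases that act on BAD and BIM, 9 of 14 were measured and 0 were called in siC cells (with 19 arrays, 1 fell with resistance). With ERRα depletion, averaged over the 5 settings, 0 genes of any of these lists were called with 20 or 19 arrays.

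The death receptor pathway had the highest counts among these lists, which were chosen with earlier results of these data known. With EGF in siC cells 3 of its 9 measured genes rose and 0 fell, beside 3.37% of all probes called. The median log2 fold change of the 9 was 0.72, beside -0.05 over all probes. TNFRSF10A, a receptor for the ligand TRAIL, had a log2 fold change of 1.83 with EGF (adjusted p = 6.28e-05) and of 1.37 with HRG (adjusted p = 0.00103). TNFRSF10B, the other TRAIL receptor with a death domain, had 1.27 (adjusted p = 0.00426) and 0.92 (adjusted p = 0.0403). TNFRSF21 (DR6) had 1.33 (adjusted p = 0.00255) and 1.16 (adjusted p = 0.0099). The same 3 receptors thus rose with both ligands, which were compared with the same starved arrays. With HRG 1.9% of all probes were called. With 19 arrays 5 rose with EGF and 4 with HRG, beside 9.03% and 5.52% of all probes called. The added genes were TNFRSF12A (the TWEAK receptor, log2 fold change 2.01 and 1.76, adjusted p = 4.02e-05 and 0.000253) with both and TNFRSF1A (TNF receptor, 0.72, adjusted p = 0.0194) with EGF. With resistance 0 of the 9 were called in either siRNA with 20 arrays, and with 19 only TNFRSF10B in siERRα cells (0.71, adjusted p = 0.0437).

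Among regulators, JUN, a subunit of AP-1, rose with EGF (log2 fold change 1.55, adjusted p = 0.00802) and HRG (1.50, adjusted p = 0.0159), and ATF4, of the integrated stress response, rose with EGF (0.63, adjusted p = 0.0421). FOXO1, a forkhead factor known to drive BH3-only genes, fell with resistance in siC (log2 fold change -1.11, adjusted p = 0.0431) and siERRα cells (-1.92, adjusted p = 0.0017). These were 2, 1 and 1 of the 12 measured transcription factors in siC cells with EGF, HRG and resistance, beside 3.37%, 1.9% and 2.95% of all probes. With 19 arrays they were 3, 3 and 1, beside 9.03%, 5.52% and 7.7% of all probes. ATF3 was added for EGF (1.60, adjusted p = 0.00699), and ATF4 (0.55, adjusted p = 0.0241) and, lower, FOXO4 (-0.74, adjusted p = 0.0261) for HRG. The FOXO4 probe was detected on only 10 of the 20 arrays. FBXW7, the ubiquitin ligase subunit that marks MCL1 for degradation, rose with EGF (0.91, adjusted p = 0.0169) and with resistance (0.87, adjusted p = 0.0244), the only one of 20 measured binding partners and turnover factors called in siC cells with 20 arrays (with 19, BAG3 too with EGF). Of the endothelial list CDH5 rose with EGF (log2 fold change 2.44, adjusted p = 0.00802) and HRG (2.46, adjusted p = 0.0129), with 2 of 6 list members measured. The other, VWF, was below detection on the starved, EGF and HRG arrays of siC cells, and was higher in resistant than in parental cells (6.55 and 6.86 against 5.68 and 5.80 with siC, adjusted p = 0.301, and 0.00604 with 19 arrays, and 7.53 and 6.97 against 5.57 and 5.46 with siERRα, adjusted p = 0.0316). CDH5 had log2 fold changes of 1.28 and 1.52 there (adjusted p = 0.181 and 0.088, and 0.0683 and 0.0302 with 19 arrays). VWF was detected on 9 of the 20 arrays, and in each parental group 1 array did not detect it. The part of these markers in the other results was not tested.

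The genes whose group means ran most like those of a member were sought over the 10 groups and 9591 other genes, with 19 arrays and 1 probe a gene. This is a description, as the points share arrays and normalization. MCL1 at its brighter probe, ILMN_1803988, had group means that spanned 1.38 and was most like VEGFA, FJX1, SPRY2, ERRFI1 and VASP (Pearson r 0.972 to 0.959). BIK and BMF had wider spans, but these reach into groups below detection, so neither their spans nor their likenesses are given.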

How the data were processed

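Total RNA of 20 SKBr3 samples was hybridized to Illumina HumanHT-12 v4 arrays. The deposited table held bead-summarized intensity values on a linear scale, not corrected or scaled between arrays, with a detection p-value per probe; columns of no sample numbered 0. The authors also deposited a table normalized with lumi in FlexArray, read here as log2, whose background step and centring are not given in the sources used here; it served as an alternative. Its column medians were 7.55 to 7.57.

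Intensities were corrected by the normexp model fitted on detection p-values (offset 16), quantile-normalized and tested with limma 3.58.1 in R 4.3.3, on the 15444 probes detected (p under 0.01) on both arrays of at least 1 group. Group means of all 20 arrays were fitted (10 residual degrees of freedom), 17 comparisons were made, tests were two-sided, and p-values were adjusted by Benjamini-Hochberg over all 15444 probes and called under 0.05. The number of arrays limits the precision. The offset understates changes of dim probes. The fit was tested on simulated data. Probes were named from the platform annotation (30113 with 1 symbol, 8 with several, 17202 with none). Named were all detected member probes, ESRRA and, per list and comparison, up to 4 called genes with the smallest p. The members and lists were chosen with earlier results of these data known. Alternatives were other background corrections, scalings, filters, weights and tests, the replicate block, and leaving out each array.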

Additional observations from a re-analysis of the deposited data

How the results depend on the processing

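The counts of called member probes moved with the setting as follows, and the cause was not tested. For EGF in siC cells (2 called) they were 1 with no background correction, with median scaling and with the authors' table, 0 in a fit of the growth factor experiment alone, and 5 averaged over the siRNAs with 20 or 19 arrays. For HRG in siC cells (1) they were 2 with 1 probe a gene, 19 arrays, array weights, or a replicate block with 19 arrays, 0 in the experiment alone, and 2 and 3 averaged with 20 and 19 arrays. For resistance in siC cells (1) they were 0 with median scaling or a detection p under 0.05, 3 with array weights, 2 with a replicate block and 19 arrays, and 2 and 4 averaged. For EGF in siERRα cells (1) they were 3 with no background correction, an offset of 50, the authors' table or 1 probe a gene, 2 with a replicate block or with trended robust moderation, and 0 with 19 arrays, array weights or the experiment alone. For HRG in siERRα cells (0) they were 2 with 19 arrays, with or without a replicate block, and 1 with array weights. For resistance in siERRα cells (1) they were 2 with 1 probe a gene, in the experiment alone or with a replicate block, 3 with 19 arrays, array weights or a replicate block with 19 arrays, and 0 with trended robust moderation. The methods' t-test gave, unadjusted, 5, 5 and 2 for EGF, HRG and resistance in siC cells, 1 and 3 for HRG and resistance in siERRα cells, and 1 each for siERRα in starved, EGF, parental and resistant cells and for parental over starved cells. After Benjamini-Hochberg it gave 0 for each of the 5 comparisons with a call.

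Leaving out 1 array gave 0 to 2 calls for EGF in siC cells, 0 to 8 for EGF in siERRα cells, 0 to 5 for siERRα with EGF and for the difference of its response between EGF and starved cells, 0 to 3 for the average of 5 settings, and 0 in the other 12 comparisons. The highest values come without EGF siERRα replicate 2, where the array that stood apart is the lone sample of its group and is assumed to vary like the others. Without that array and 1 further array, MCL1 ILMN_1756806 with EGF (adjusted p at most 0.0348) and BMF with HRG (0.0251) in siC cells were called in 4 of 4 fits, BID ILMN_1763386 (0.0609) and BMF (0.0514) with EGF in 3 of 4, and BID with resistance in siC cells in 2 of 4 (0.0622). BID ILMN_1763386 (0.0855) and BMF (0.0866) with resistance in siERRα cells were called in 2 of 4. BID ILMN_1763386 with HRG in siC cells was called in 1 of 4 (0.121). In siERRα cells the same held for BMF (0.22) and MCL1 ILMN_1756806 (0.285) with HRG and for BID ILMN_2372413 with resistance (0.19). Of 282 values for the 12 comparisons of a single probe with a call, 0 changed sign. Many of these settings, such as other filters, weights, moderation and tests, keep the same difference of group means. Their signs could not change, so the count is no measure of stability. Over all 13 probes, 4 had opposite signs with 20 and 19 arrays for EGF in siERRα cells, 2 for siERRα with EGF, 2 for the average of 5 settings and 3 for the EGF difference of responses. The labels do not say what the replicate number marks, and replicate 1 columns carry number codes where replicate 2 columns carry letter codes. The correlation of deviations of same-numbered arrays ran from -0.08 to 0.255 over 45 pairs of groups (median 0.0875). It was over 0.1 in 19 pairs. Some probes followed the number: CDH5 read higher on replicate 1 than on replicate 2 in every group. Others, such as MCL1 ILMN_1756806, did not. The main fit has no term for the replicate number, which the replicate block adds.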
